A study of Mus musculus with 7 samples.

Results

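The Dlk1-Dio3 imprinted cluster is a stretch of mouse chromosome 12 in which some genes are transcribed mainly from the chromosome inherited from the mother and others mainly from the one inherited from the father. It was followed here through 7 genes taken by name from the count table, which held 54838 genes in all. They were the 3 maternally expressed noncoding RNAs Meg3, Rian and Mirg, the paternally expressed coding genes Dlk1, Rtl1 and Dio3, and Begain, a coding gene at the proximal edge. The measurements were RNA-seq counts from 7 mouse libraries, in 3 groups. The 3 M-iPSC libraries came from colonies titled M. The 3 GC-iPSC libraries came from colonies titled GC, and the remaining library came from V6.5, an established embryonic stem cell (ESC) line. The induced pluripotent stem cells (iPSCs) were made from splenic germinal center B cells of immunized male mice, sorted as B220+ CD38- Fas+. These B cells were taken as a whole for one source and by an endogenous Myc-GFP reporter, which marks cells that received T cell help, for the other. The letter M was read as that reporter source, which the titles do not spell out. The B cells of both sources were held on mouse embryonic fibroblasts with cytokines, reprogrammed with doxycycline (Dox) and then kept without it before colonies were picked, passaged on gelatin and pre-plated to remove fibroblasts. All cells grew in medium with serum and LIF, the cytokine used to hold mouse cells in the pluripotent state. Neither a batch nor the mouse behind each colony is given, so p-values measure the spread among these colonies, and source, donor and batch cannot be told apart.

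Expression from the cluster is set by a differentially methylated region between Dlk1 and Meg3, which is methylated on the paternal chromosome. When the maternal copy also gains methylation, the noncoding RNAs fall silent. In mouse iPSC lines the silencing of Meg3 and its neighbours is a known fault, and lines with it contribute poorly to chimeric animals. The long maternal transcripts carry a large group of microRNAs and C/D box small nucleolar RNAs (snoRNAs) of the mouse genome. Dlk1 and Dio3 make proteins that act on Notch signalling and on thyroid hormone.

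The members lie within 1248.9 kb on chromosome 12 of GRCm38, by GENCODE release M21. In chromosome order they are Begain (chr12:109032187-109068217, minus strand), Dlk1 (chr12:109452823-109463336, plus strand), Meg3 (chr12:109541001-109571726, plus strand) and Rtl1 (chr12:109589193-109600330, minus strand). Rian (chr12:109603940-109661716), Mirg (chr12:109729764-109749460) and Dio3 (chr12:110279068-110281097) follow on the plus strand. Rtl1 is overlapped by 6 annotated genes on the opposite strand, Meg3 by 1 and Mirg by 1. Whether counting used strand is not stated in the labels or the table, so reads of a gene and its antisense partner may not have been told apart there.

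**Figure D1:**
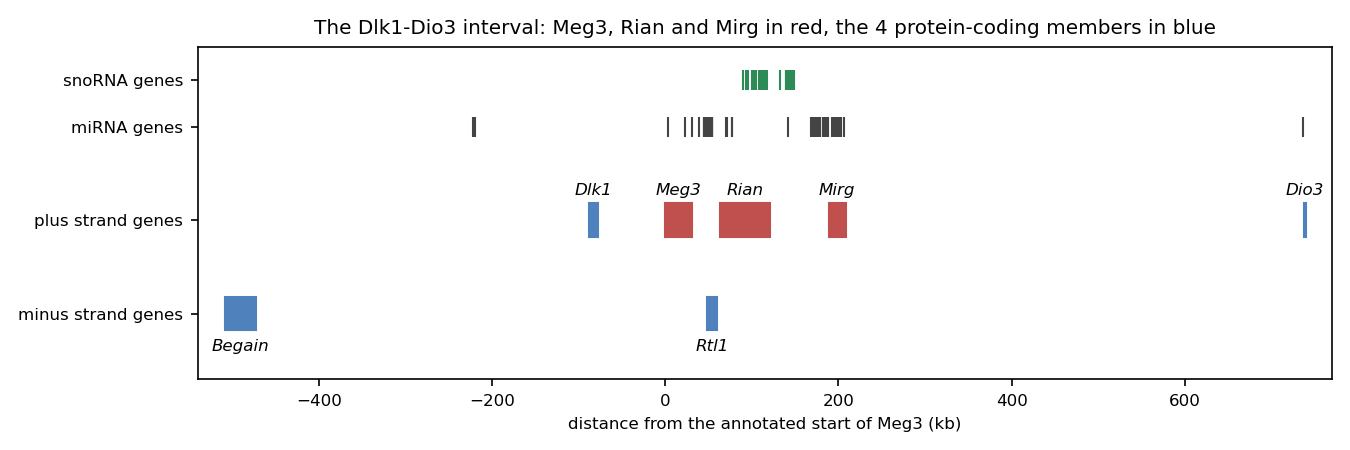
The map shows the interval on chromosome 12, with distance in kb from the annotated start of Meg3 on the horizontal axis and rows for minus strand genes, plus strand genes, microRNA genes and snoRNA genes. Meg3, Rian and Mirg (red) follow each other on the plus strand, Begain and Rtl1 (blue) are on the minus strand, and most small RNA genes lie from Meg3 to Mirg.

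The start of Meg3 is shown because it is the maternal promoter nearest to the imprinting control region, and the starts of Rian and Dio3 because their base composition differs from it. The windows are from RefSeq on GRCm38.p6 and run from 250 bases before to 50 bases after the annotated start, 5′ to 3′ on the plus strand. Of the 7 members, 6 had a window, and Rtl1 had none. Meg3 and Begain had more than 1 annotated start, and the Meg3 window shown is the first. Capitals mark TGACGTCA, the palindromic cyclic AMP response element, and TATAAA or its reverse complement TTTATA, which overlap in the Meg3 window.
Meg3, chr12:109540746-109541045: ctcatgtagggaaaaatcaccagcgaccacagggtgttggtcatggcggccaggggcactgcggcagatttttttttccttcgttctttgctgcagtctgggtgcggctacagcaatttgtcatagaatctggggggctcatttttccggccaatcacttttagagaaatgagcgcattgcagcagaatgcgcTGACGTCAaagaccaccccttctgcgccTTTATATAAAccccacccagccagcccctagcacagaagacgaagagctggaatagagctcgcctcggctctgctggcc
Rian, chr12:109603695-109603994: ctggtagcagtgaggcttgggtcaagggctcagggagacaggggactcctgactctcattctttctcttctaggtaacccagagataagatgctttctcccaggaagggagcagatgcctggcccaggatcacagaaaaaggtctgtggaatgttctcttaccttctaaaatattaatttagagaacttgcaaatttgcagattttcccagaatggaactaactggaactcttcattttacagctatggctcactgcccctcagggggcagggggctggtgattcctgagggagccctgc
Dio3, chr12:110278980-110279279: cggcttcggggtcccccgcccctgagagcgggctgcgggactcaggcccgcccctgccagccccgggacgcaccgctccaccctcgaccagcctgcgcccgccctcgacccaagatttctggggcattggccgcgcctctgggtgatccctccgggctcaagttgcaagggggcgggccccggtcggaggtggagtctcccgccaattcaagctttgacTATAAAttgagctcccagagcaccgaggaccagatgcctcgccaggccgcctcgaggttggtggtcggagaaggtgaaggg
The Meg3 window held TGACGTCA 57 bases before the start and TATAAA 25 bases before it, and 13 CpG dinucleotides at 53.7% G and C. Among 32851 RefSeq windows of the same length, 1.79% held TGACGTCA and 13.6% held TATAAA on either strand. Rian had 0 CpG dinucleotides and neither motif, and Dio3 had 25 CpG dinucleotides, 69.0% G and C, and TATAAA 31 bases before its start. The median window held 7 CpG dinucleotides and 52.7% G and C. A match to such letters is a description of the sequence and not a site of binding, and no methylation was measured.

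RefSeq places 61 microRNA genes in the interval, with 114 mature entries of 113 distinct sequences. A few are shown, from within the members and from between them, to make plain what the interval holds. Capitals mark the seed, bases 2 to 8 from the 5′ end, which pairs with target messenger RNAs.
miR-770-5p, within Meg3: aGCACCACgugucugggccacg
miR-127-3p, opposite Rtl1: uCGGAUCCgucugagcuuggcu
miR-370-3p, within Rian: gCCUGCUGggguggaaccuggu
miR-379-3p, between Rian and Mirg: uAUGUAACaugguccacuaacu
miR-411-3p, between Rian and Mirg: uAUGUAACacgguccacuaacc
miR-134-5p, within Mirg: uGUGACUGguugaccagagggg
miR-382-5p, within Mirg: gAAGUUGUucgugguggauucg
miR-410-3p, within Mirg: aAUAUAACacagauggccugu
The 2 entries between Rian and Mirg share a seed, 1 of 9 seeds that are shared by 2 distinct sequences or more, among 104 distinct seeds. By position, 2 of the microRNA genes lie within Meg3, 7 within Rtl1, 3 within Rian, 14 within Mirg and 35 outside every member, of which 26 lie between Rian and Mirg. Mature microRNAs carry no poly-A tail, so these libraries do not measure them.

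Totals ran from 31505623 to 33173123 counts in M-iPSC and from 31612440 to 35728921 in GC-iPSC, and V6.5 had 31139508. Levels below are CPM, counts scaled to a common library size, after scaling of libraries by the trimmed mean of M values (TMM). A count of 0 would allow 3 counts, or 0.0840 to 0.0963 CPM by library, counting error only. Counts from 1 to 49 were even in 68.5% to 72.2% of genes, against 49.5% to 50.9% of genes at 1000 counts or more. Counting each mate of a read pair would give such an excess, which was not tested, and low counts may then overstate the fragments behind them. M-iPSC colonies 2 and 3 had 0 summed counts of 4 Y-linked genes, against 4292 in M-iPSC colony 1, 3732 to 4699 in GC-iPSC and 740 in V6.5, whereas the labels call the mice male. Values without both colonies are therefore given where they matter. Pluripotency markers summed to 5578 to 6011 CPM over 10 genes in M-iPSC, 5699 to 6046 CPM in GC-iPSC and 7531 CPM in V6.5, so the cultures carried the markers of their label. B cell markers summed to 14.2 to 16.9 CPM over 10 genes in M-iPSC, 17.6 to 18.6 CPM in GC-iPSC and 15.7 CPM in V6.5.

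The iPSC colonies were set against V6.5 to ask whether the cluster sits at ESC levels after reprogramming. Meg3, Rian and Mirg were lower in all 6 colonies than in V6.5, by 4.14-fold, 8.08-fold and 9.57-fold. Among Dlk1, Rtl1, Dio3 and Begain no difference passed the test. In edgeR's quasi-likelihood test with Benjamini-Hochberg adjustment, 3 of 7 members were called lower and 0 higher. Of the 20502 genes tested, 16.3% were called, with 7.56% lower and 8.76% higher. As V6.5 is 1 library, it was assumed to vary like the colonies. In bulk RNA, fewer cells that express a gene and less RNA per cell cannot be told apart.

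Meg3, the noncoding RNA whose promoter is shown above, had 45.3, 35.2 and 37.0 CPM in M-iPSC colonies 1 to 3, 29.6, 29.2 and 38.8 CPM in GC-iPSC colonies 1 to 3 and 148 CPM in V6.5. No colony came near V6.5, and the range of the colonies was narrow beside the gap. The colonies averaged 35.8 ± 6.06 CPM (SD, n = 6), which was 4.14-fold lower than V6.5 (95% interval 3.40 to 5.04). The log2 change was -2.05 with an SE of 0.13 (edgeR adjusted p = 1.14e-06). The raw counts behind these levels were 1483, 1174 and 1168 in M-iPSC, 1068, 957 and 1236 in GC-iPSC and 4407 in V6.5.

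Rian, whose span holds 13 of the 23 annotated snoRNA genes of the interval, was the most abundant of the 7 in V6.5. It had 57.0, 30.4 and 38.0 CPM in M-iPSC, 27.2, 25.9 and 26.7 CPM in GC-iPSC and 269.6 CPM in V6.5. M-iPSC colony 1 stood highest among the colonies and was still at 21.1% of the V6.5 level, while the lowest colony was at 9.60%. The colonies averaged 34.2 ± 12.02 CPM (SD, n = 6), 8.08-fold lower than V6.5 (95% interval 6.26 to 10.4, log2 change -3.01 with an SE of 0.17, edgeR adjusted p = 3.61e-07). Over all 20502 genes, 40 had a lower log2 change than Rian.

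Mirg, whose span holds microRNA genes at the distal end of their group, had 1.31, 0.778 and 1.52 CPM in M-iPSC, 0.277, 0.792 and 0.690 CPM in GC-iPSC and 8.04 CPM in V6.5. The lowest colony was at 3.45% of V6.5 and the highest at 18.9%. The colonies averaged 0.896 ± 0.451 CPM (SD, n = 6), 9.57-fold lower than V6.5 (95% interval 5.54 to 16.5). The log2 change was -3.26 with an SE of 0.37 (edgeR adjusted p = 5.93e-05). Its raw counts of 43, 26 and 48 in M-iPSC and 10, 26 and 22 in GC-iPSC, against 240 in V6.5, make this the least precise of the 3.

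**Figure D2:**
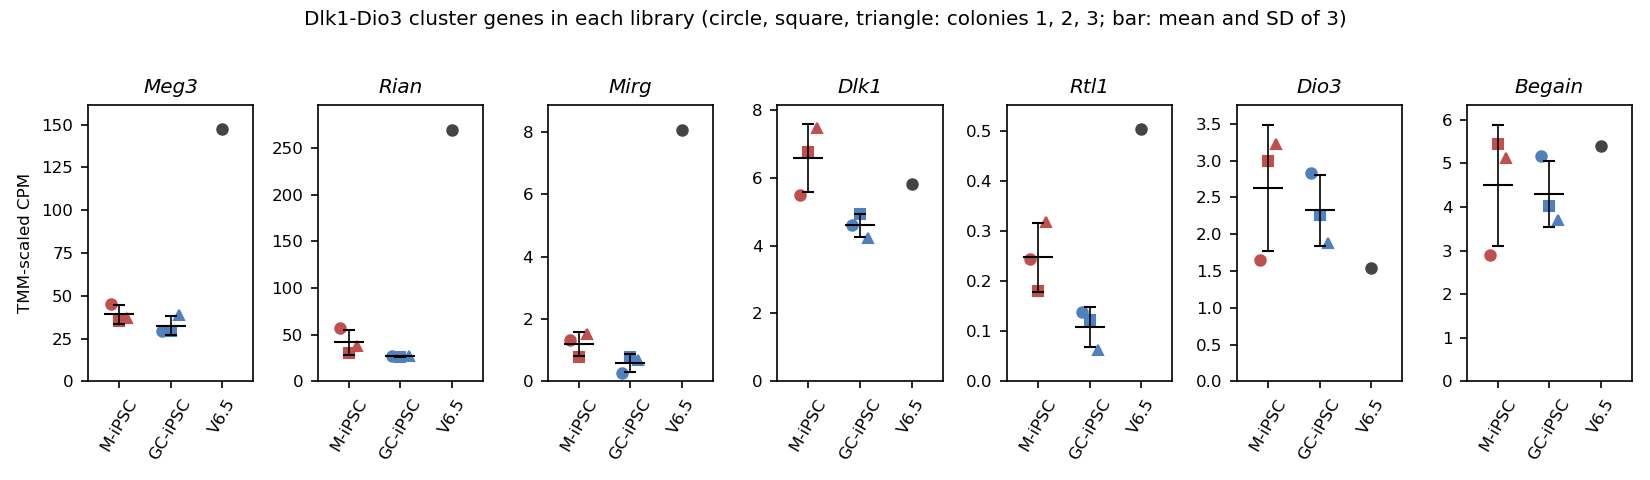
Each panel plots 1 gene as TMM-scaled CPM on a linear axis from 0, with colonies as points, the mean and SD of 3 colonies as bars, and V6.5 as a single point. For Meg3, Rian and Mirg all 6 colonies lie far below V6.5, whereas for Dlk1 and Begain V6.5 lies among the colonies, and for Dio3 below all of them.

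Dlk1, a transmembrane protein with EGF-like repeats that acts on the Notch pathway, lies beside Meg3 and is expressed from the other parental chromosome. It had 5.50, 6.77 and 7.48 CPM in M-iPSC, 4.61, 4.94 and 4.24 CPM in GC-iPSC and 5.83 CPM in V6.5. V6.5 fell inside the range of the colonies. The mean over 6 colonies was 5.59 ± 1.28 CPM (SD), with a log2 change of -0.08 and a 95% interval from -0.57 to 0.41 (edgeR adjusted p = 0.855). That interval leaves out a change of the size seen for Meg3.

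Dio3, the type 3 deiodinase that inactivates thyroid hormone, closes the cluster. Its level was 1.65, 2.99 and 3.23 CPM in M-iPSC, 2.83, 2.26 and 1.88 CPM in GC-iPSC and 1.54 CPM in V6.5. All 6 colonies were above V6.5, M-iPSC colony 1 only just. The log2 change was 0.68 with a 95% interval from -0.20 to 1.56 (edgeR adjusted p = 0.307). Of all genes tested, 25.7% had all 6 colonies above V6.5 and 25.7% had all 6 below.

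Rtl1, a gene derived from a retrotransposon and needed for placental vessels, was barely detected. Its counts were 8, 6 and 10 in M-iPSC, 5, 4 and 2 in GC-iPSC and 15 in V6.5. It passed the filter on low counts only when V6.5 was included. The colonies were all below V6.5, at 0.177 ± 0.0913 CPM (SD, n = 6) against 0.503 CPM. The interval of the log2 change, -3.46 to 0.27, covers both no change and one as large as that of Rian (edgeR adjusted p = 0.249). Begain, which codes for a protein that binds the postsynaptic scaffold PSD-95, had 2.90, 5.45 and 5.13 CPM in M-iPSC, 5.16, 4.02 and 3.70 CPM in GC-iPSC and 5.39 CPM in V6.5. M-iPSC colonies 1 and 2 were its lowest and highest values, and its log2 change of -0.29 had a 95% interval from -0.96 to 0.37 (edgeR adjusted p = 0.588).

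Each colony group was also set against V6.5 in the same fit, and both comparisons share that library. Meg3, Rian and Mirg were lower in M-iPSC by 3.77-fold, 6.45-fold and 6.67-fold (edgeR adjusted p = 4.52e-06, 2.82e-06 and 0.00066). The other 4 members were not called there, where 16.2% of all genes were called, with 7.37% lower and 8.84% higher. In GC-iPSC the same 3 were lower than in V6.5 by 4.54-fold, 10.1-fold and 13.7-fold (edgeR adjusted p = 2.87e-06, 1.02e-06 and 9.7e-05), against a background of 13.0% called, with 5.51% lower and 7.53% higher. The 3 calls held in every one of the 11 alternative settings tried in each comparison with V6.5, which changed the filter, the scaling, the test or the colonies included. All of these settings kept the same V6.5 library, so they could not check how far it stands for the line.

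**Figure D3:**
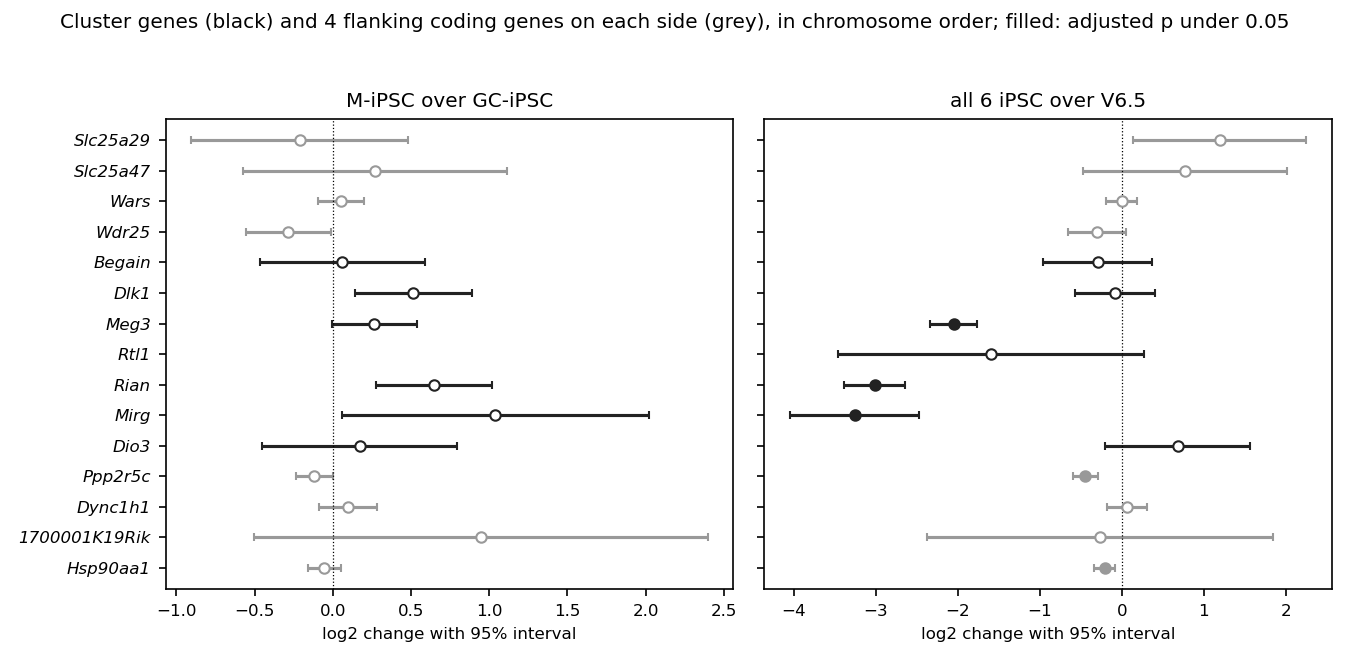
Each panel plots, for 1 comparison, log2 changes with 95% intervals on the horizontal axis for the members (black) and the 4 coding genes on each side (grey), in chromosome order, with filled points at an edgeR adjusted p under 0.05. Against V6.5 the filled members are Meg3, Rian and Mirg alone, and between M-iPSC and GC-iPSC, where Rtl1 was not tested, no point is filled.

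The M-iPSC colonies were set against GC-iPSC to ask whether the sorted state of the B cell left a difference in the cluster. Of 6 members tested, 0 were called in edgeR, 0 in DESeq2 and 0 in limma-voom, while 3.97% of 18166 genes were called in edgeR, with 2.27% lower and 1.70% higher. At an unadjusted p under 0.05, 3 of the 6 were higher in M-iPSC (Rian, Mirg and Dlk1) and 0 were lower, against 7.97% of all genes higher and 8.67% lower. Rtl1 did not pass the filter on low counts. The 3 M-iPSC values lay wholly above the GC-iPSC values for 2 of the 6 tested members (Rian and Dlk1), against 9.81% of all genes tested, and were wholly above or below for 22.1%. They did so for the untested Rtl1 too.

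Rian averaged 42.1 ± 13.8 CPM in M-iPSC and 26.8 ± 0.680 CPM in GC-iPSC (SD, n = 3 each), a log2 change of 0.65 with an SE of 0.17 and a 95% interval from 0.28 to 1.02 (edgeR adjusted p = 0.0566). The groups did not overlap, and the spread was unequal, with a coefficient of variation of 32.8% in M-iPSC and 2.55% in GC-iPSC. M-iPSC colony 1, at 57.0 CPM, carried much of the difference. Without that colony the log2 change was 0.36 (edgeR adjusted p = 0.1). Without M-iPSC colony 2 it was 0.83 and was called (edgeR adjusted p = 0.00606), and without M-iPSC colonies 2 and 3, it was 1.10 and was called (edgeR adjusted p = 0.000615). The last fit leaves 1 M-iPSC colony, so its spread comes from the narrow GC-iPSC group alone.

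Mirg averaged 1.21 ± 0.387 CPM in M-iPSC and 0.592 ± 0.275 CPM in GC-iPSC (SD, n = 3 each), with a log2 change of 1.04 and an SE of 0.45 (edgeR adjusted p = 0.269). Its groups overlapped, since M-iPSC colony 2 was below GC-iPSC colony 2. Meg3 averaged 39.4 ± 5.42 CPM in M-iPSC and 32.8 ± 5.45 CPM in GC-iPSC (SD, n = 3 each), with a log2 change of 0.27 and an SE of 0.12 (edgeR adjusted p = 0.312), and its groups overlapped too. Dlk1, which did not overlap between groups, averaged 6.63 ± 1.02 CPM in M-iPSC and 4.63 ± 0.357 CPM in GC-iPSC, with a log2 change of 0.52 (edgeR adjusted p = 0.139). Without M-iPSC colonies 2 and 3, the log2 change of Dlk1 was smaller, at 0.26. Dio3 and Begain had log2 changes of 0.17 and 0.06 (edgeR adjusted p = 0.838 and 0.943), with overlapping groups. The intervals of the noncoding RNAs reach well above 0, so the absence of a call does not show equal levels.

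The ratio of Rian to Meg3 counts within a library does not depend on library size. It was 1.26, 0.865 and 1.03 in M-iPSC, 0.919, 0.887 and 0.689 in GC-iPSC and 1.83 in V6.5, so all 6 colonies were below V6.5. Mirg came to 2.90%, 2.21% and 4.11% of the Meg3 count in M-iPSC, 0.936%, 2.72% and 1.78% in GC-iPSC and 5.45% in V6.5. Against Rian, Mirg came to 2.31%, 2.56% and 4.00% in M-iPSC, 1.02%, 3.06% and 2.58% in GC-iPSC and 2.98% in V6.5, which lies within the colonies. Relative to Meg3, both distal RNAs were thus lower in every colony than in V6.5, and relative to each other they were not.

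The coding genes took a larger share of the cluster counts in every colony than in V6.5. Meg3, Rian and Mirg made up 91.0%, 81.2% and 82.6% of all cluster counts in M-iPSC, 81.8%, 83.1% and 87.0% in GC-iPSC and 97.0% in V6.5. Dlk1 came to 12.1%, 19.3% and 20.2% of the Meg3 count in M-iPSC, 15.5%, 16.9% and 10.9% in GC-iPSC and 3.95% in V6.5. Summed over the 4 coding genes, the level was 10.3, 15.4 and 16.2 CPM in M-iPSC, 12.7, 11.3 and 9.88 CPM in GC-iPSC and 13.3 CPM in V6.5. The 3 noncoding RNAs summed to 104, 66.3 and 76.6 CPM in M-iPSC, 57.1, 55.8 and 66.2 CPM in GC-iPSC and 425 CPM in V6.5.

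**Figure D4:**
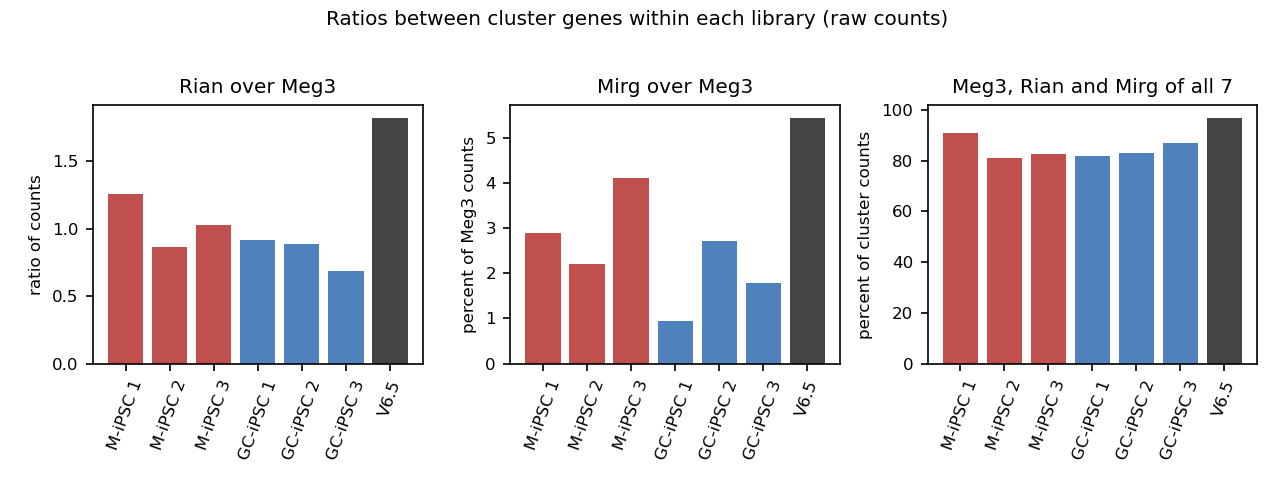
Each panel plots 1 ratio of raw counts within each library, on a linear axis from 0, with M-iPSC, GC-iPSC and V6.5 from left to right. Rian relative to Meg3 is highest in V6.5 at 1.83, as is Mirg relative to Meg3 at 5.45%. The share of Meg3, Rian and Mirg in all cluster counts is also highest there, at 97.0%.

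Levels of different genes were compared per kilobase of exon (CPM per kb of the union of annotated exons). In V6.5 the order was Rian at 14.8, Meg3 at 8.16, Begain at 1.22, Mirg at 1.10, Dlk1 at 1.03, Dio3 at 0.759 and Rtl1 at 0.0791 CPM per kb. In M-iPSC, Rian (2.29 ± 0.751) and Meg3 (2.17 ± 0.299) did not differ beyond their spread, nor did Dio3 (1.29 ± 0.420), Dlk1 (1.16 ± 0.177) and Begain (1.02 ± 0.315 CPM per kb, SD, n = 3). In GC-iPSC, Meg3 stood at 1.80 ± 0.300 and Rian at 1.46 ± 0.0373, next to Dio3 at 1.14 ± 0.235 CPM per kb. Mirg stood well below Dlk1, Dio3 and Begain in both colony groups, at 0.165 ± 0.0526 CPM per kb in M-iPSC and 0.0805 ± 0.0374 CPM per kb in GC-iPSC. The order depends on the length used. With the longest transcript as the length, Rian stood above Meg3 in both colony groups, at 5.17 ± 1.69 against 2.69 ± 0.372 CPM per kb in M-iPSC and 3.29 ± 0.0840 against 2.24 ± 0.373 CPM per kb in GC-iPSC (SD, n = 3 each). In V6.5 it gave 33.3 CPM per kb for Rian and 10.2 for Meg3, and placed Mirg (2.10) above Begain (1.65).

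The interval holds 115 other annotated genes, of which 19 had a count in any library. Together they had 296 counts, and the 69 annotated microRNA genes had 14 between them. Most of those counts, 179, were on the pseudogene Gm3379. Next came Dio3os, the noncoding RNA that starts near Dio3 on the opposite strand, with counts of 4, 18 and 22 in M-iPSC, 3, 4 and 4 in GC-iPSC and 2 in V6.5. M-iPSC colonies 2 and 3 were its high values, and M-iPSC colony 1 was at the GC-iPSC level. It was too low to be tested between the colony groups. The next 8 by summed count were Gm26945, Gm37899, DQ267102, Gm34081, Mir3072, B830012L14Rik, Mir453 and Gm24564, none of which had more than 11 counts over the 7 libraries.

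Outside the cluster, the nearest 4 coding genes on each side are Slc25a29, Slc25a47, Wars and Wdr25 before Begain, and Ppp2r5c, Dync1h1, 1700001K19Rik and Hsp90aa1 after Dio3. Against V6.5, 2 of these 8 were called lower in the colonies and 0 higher, beside 7.56% of all genes lower and 8.76% higher. Ppp2r5c, a regulatory subunit of protein phosphatase 2A, averaged 213 ± 9.82 CPM over 6 colonies and 291 CPM in V6.5, a log2 change of -0.45 (edgeR adjusted p = 0.000722). Hsp90aa1, a heat shock chaperone, averaged 3905 CPM in the colonies and 4521 CPM in V6.5, a log2 change of -0.21 (edgeR adjusted p = 0.0329). Wars, the tryptophan tRNA synthetase, had a log2 change near 0, with a 95% interval of its fold from 0.874 to 1.14. Between M-iPSC and GC-iPSC, 0 of the 8 were called, beside 3.97% of all genes.

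The regulators of imprinting were followed as a list of 27 genes, all tested. Against V6.5, 4 were higher in the colonies, 3 were lower and 20 did not pass, beside 8.76% of all genes higher and 7.56% lower. Dnmt3b, a de novo DNA methyltransferase, had 418, 295 and 374 CPM in M-iPSC, 296, 289 and 304 CPM in GC-iPSC and 105 CPM in V6.5. Every colony was well above V6.5, with a log2 change of 1.64 (SE 0.15, edgeR adjusted p = 1.42e-05). The other de novo methyltransferase Dnmt3a averaged 251 CPM in the colonies and 169 CPM in V6.5 (log2 change 0.57, edgeR adjusted p = 0.00026). Their catalytically inactive partner Dnmt3l averaged 383 CPM in the colonies and 277 CPM in V6.5 (log2 change 0.46, edgeR adjusted p = 0.00184). Tet3, which oxidizes methylated cytosine, was the fourth, at 18.2 CPM in the colonies and 9.45 CPM in V6.5 (log2 change 0.93, edgeR adjusted p = 0.00243).

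The 3 regulators that were lower in the colonies differ in kind. Tet2, which also oxidizes methylated cytosine, averaged 127 CPM in the colonies and 178 CPM in V6.5 (log2 change -0.50, edgeR adjusted p = 0.018). Suz12, a subunit of Polycomb repressive complex 2, averaged 242 CPM in the colonies and 312 CPM in V6.5 (log2 change -0.37, edgeR adjusted p = 0.00675). Ctcf, a DNA-binding insulator protein, averaged 169 CPM in the colonies and 204 CPM in V6.5 (log2 change -0.27, edgeR adjusted p = 0.0408). Zfp57, which binds methylated imprinting control regions, had a log2 change of -0.21 (edgeR adjusted p = 0.245), and its cofactor Trim28 had one of -0.06 (edgeR adjusted p = 0.597). Leaving out 1 colony at a time, 4 to 5 of the list were higher and 2 to 4 lower. The median log2 change over the list was 0.064, against 0.015 over all genes tested. Whether these RNA levels bear on the cluster was not tested.

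**Figure D5:**
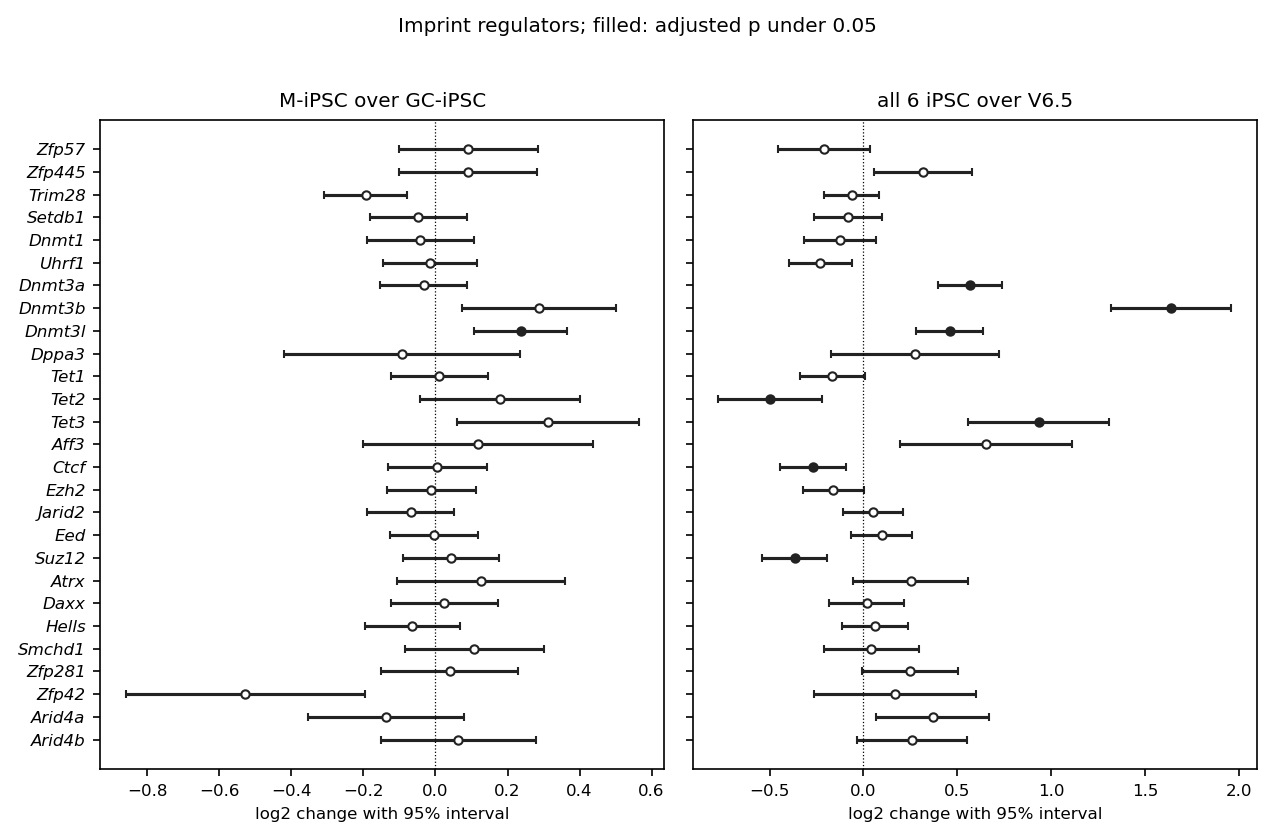
Log2 changes with 95% intervals are plotted for 27 regulators of imprinting in 2 comparisons, with filled points at an edgeR adjusted p under 0.05. Dnmt3b, at 1.64, is the farthest of the filled points against V6.5, and Dnmt3l alone is filled between M-iPSC and GC-iPSC.

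Between M-iPSC and GC-iPSC, 1 of the 27 regulators was called, a share close to the 3.97% of all genes. Dnmt3l averaged 417 CPM in M-iPSC and 354 CPM in GC-iPSC, a log2 change of 0.24 (SE 0.06, edgeR adjusted p = 0.0469). The call was lost without GC-iPSC colony 1, without GC-iPSC colony 2, without M-iPSC colony 1 and without M-iPSC colony 3. Dnmt3b had a log2 change of 0.29 between the colony groups (edgeR adjusted p = 0.149).

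The pathways on which Dlk1 and Dio3 act were listed as 13 Notch genes and 6 genes of thyroid hormone handling. Over all genes tested, 8.76% were called higher and 7.56% lower against V6.5, and 3.97% were called between M-iPSC and GC-iPSC. Against V6.5, the receptor Notch3 and the ligand Dll1 were higher in the colonies, with log2 changes of 0.43 and 0.45 (edgeR adjusted p = 0.0251 and 0.0451), and the receptor Notch4 was lower (log2 change -0.71, edgeR adjusted p = 0.00231). Between M-iPSC and GC-iPSC, Notch4 was lower, at 28.7 CPM in M-iPSC and 38.5 CPM in GC-iPSC (log2 change -0.42, edgeR adjusted p = 0.0462), and the other 12 did not pass. The Notch4 call between colony groups was lost without any 1 of the 3 GC-iPSC colonies, without M-iPSC colony 1 and without M-iPSC colony 3. Neither Notch3 nor Dll1 was called against V6.5 without GC-iPSC colony 2, or without M-iPSC colonies 2 and 3. Only 1 Notch gene was called higher in limma-voom, without M-iPSC colony 1 or without M-iPSC colony 3. In M-iPSC against V6.5, 2 Notch genes were called higher and 2 lower, beside 8.84% and 7.37% of all genes. In GC-iPSC against V6.5, 0 were called higher and 1 lower, beside 7.53% and 5.51% of all genes. Of the thyroid genes 4 were tested against V6.5, of which 1 was called higher, 1 lower and 2 not. The lower one, the receptor Thra, averaged 17.5 CPM in the colonies and 27.04 CPM in V6.5 (log2 change -0.63, edgeR adjusted p = 0.008). Dio2, the activating deiodinase, had 0 counts in all 7 libraries.

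Markers of primitive endoderm and fibroblasts moved with the comparison of all 6 colonies against V6.5, whereas 0 of the 7 B cell markers tested were called. Primitive endoderm markers, 10 genes of an extraembryonic lineage, summed to 2198 to 3734 CPM in M-iPSC, 1908 to 2344 CPM in GC-iPSC and 468 CPM in V6.5, and all 10 were called higher in the colonies. Of the fibroblast markers, 18 of 20 were tested and 10 were called higher, summing to 1574 to 1956 CPM in M-iPSC, 1629 to 1719 CPM in GC-iPSC and 1020 CPM in V6.5. Their part in the lower Meg3, Rian and Mirg was not tested. Of the 10 pluripotency markers, 7 were called lower and 1 higher. Over all genes tested against V6.5, 7.56% were called lower and 8.76% higher. Pdgfra was in both the endoderm and the fibroblast list. Between M-iPSC and GC-iPSC, 2 of 10 endoderm markers were called higher, beside 1.70% of all genes. Without M-iPSC colony 2, 9 of 10 were called higher, where 702 of 18748 genes were called in either direction. The endoderm sums of M-iPSC colonies 1 to 3 were 3575, 2198 and 3734 CPM, beside 57.0, 30.4 and 38.0 CPM of Rian. Those of GC-iPSC colonies 1 to 3 were 2261, 1908 and 2344 CPM, beside 27.2, 25.9 and 26.7 CPM of Rian. V6.5 had the lowest endoderm sum, 468 CPM, beside the highest Rian level, 269.6 CPM. A relation between the endoderm sums and Rian was not tested.

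Genes outside the interval were ranked by how closely they followed the mean of Meg3, Rian and Mirg, each on a log2(CPM + 1) scale and standardized. Over the 7 libraries the 5 closest were Trappc11, Zfp729b, Arl2bp, Zfa-ps and Wfdc2, with Pearson r from 0.983 to 0.995 among 20493 genes. These r values rest mainly on the lone V6.5 library. Wfdc2 averaged 27.1 CPM in the colonies and 61.5 CPM in V6.5, but the closest gene, Trappc11, differed less, with 75.7 and 95.7 CPM. Zfa-ps was near the floor, at 0.0555 to 0.122 CPM in the colonies. Over the 6 iPSC libraries alone the 5 closest were Zfp180, Gm9431, Ahnak, Dnase1l2 and Gm43088, with r from 0.987 to 0.999, none of which was among the first 5. Gm9431, Dnase1l2 and Gm43088 were low, averaging 0.308, 0.504 and 0.206 CPM in the colonies. With 6 or 7 points and this many genes such values are a description of the libraries.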

How the data were processed

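RNA-seq of poly-A RNA from 3 M-iPSC colonies, 3 GC-iPSC colonies and 1 V6.5 culture was used as the raw counts per Ensembl gene that the authors deposited, without normalization. The submitters' processing notes name STAR 2.7.10a, featureCounts 2.0.6, DESeq2 (no version) and the build mm10, or GRCm38. The labels disagree on whether the library kit was stranded, and name no strand setting for counting and no treatment of reads that map to several places.

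Groups came from the titles. Genes were named by GENCODE M21, which matched 54809 of 54838. Genes passing filterByExpr (18166 for the 6 iPSC libraries, 20502 for all 7) were scaled by TMM. The test was edgeR's two-sided quasi-likelihood F test (edgeR 4.0.16, R 4.3.3), with Benjamini-Hochberg adjustment over all of them and a threshold of 0.05. M-iPSC over GC-iPSC was fitted on 6 libraries, and the comparisons with V6.5 on 7, with that lone library assumed to vary like the colonies. A standard error is the log2 change divided by the square root of F. Alternatives used no filter, RLE scaling, DESeq2 1.42.0, voom in limma 3.58.1, a replicate block, all 7 libraries for M-iPSC over GC-iPSC, and fits without 1 colony each or without M-iPSC colonies 2 and 3. The test was tried on simulated counts with known changes, drawn with the same relative spread beyond counting error for every gene and library. That trial could not check the assumption that V6.5 varies like the colonies.

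Members and lists were chosen with earlier results of these data known. The text names all 7 members, the 10 other genes of the interval with most counts, the 4 nearest coding genes on each side, regulators called in either main comparison, and the 5 genes closest in pattern. Intervals and floors cover 95% and 3 counts, and counting error only for the floors. The result of 1 listed gene is not reported here.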

Additional observations from a re-analysis of the deposited data

How the results depend on the processing

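In the comparisons with V6.5 the calls of Meg3, Rian and Mirg were kept under all 11 alternatives, with log2 changes for all colonies of -2.12 to -1.94 for Meg3, -3.16 to -2.79 for Rian and -3.40 to -3.08 for Mirg. Each alternative used the same lone V6.5 library. Between M-iPSC and GC-iPSC the number of members called, 0 in the edgeR test described, was 0 to 1 when 1 colony was left out. It was 1 without a filter on low counts, without M-iPSC colonies 2 and 3, with the replicate block and in a fit of all 7 libraries. The gene was Rian each time, with log2 changes of 0.65, 1.10, 0.60 and 0.65 (edgeR adjusted p = 7.77e-09, 0.000615, 0.016 and 0.0462). The adjusted p of Rian ran from 7.77e-09 to 0.209 over 13 alternatives, and the cause was not tested.

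Signs also turned for members that were not called. Begain between M-iPSC and GC-iPSC ran from -0.10 to 0.30 with 1 colony left out, including -0.029 without GC-iPSC colony 3 and -0.042 without M-iPSC colony 3, and was -0.57 without M-iPSC colonies 2 and 3. Dio3 ran from -0.0027 to 0.42 with 1 colony left out and was -0.50 without those 2 colonies. Dlk1 over V6.5 in M-iPSC was -0.082 without them. The cause was not tested.

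Over all genes, 721 were called between M-iPSC and GC-iPSC, against 1318 with no filter, 1110 by DESeq2, 412 without GC-iPSC colony 1, 244 without GC-iPSC colony 2, 270 without M-iPSC colony 3 and 373 without M-iPSC colonies 2 and 3. For the block on colony number, deviations of same-numbered colonies correlated at 0.105, 0.0915 and 0.140, and each of the 6 colonies correlated best with its own number. The numbers were not taken to pair colonies because the labels do not state a pairing. Whether they do was not tested. Rian was called with the block (edgeR adjusted p = 0.016) and not without it (edgeR adjusted p = 0.0566). Depth limits Rtl1, with 2 to 15 counts a library, and Mirg, with 10 counts in its lowest. DESeq2 gave no adjusted p for Rtl1.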
